A study of Mus musculus with 15 samples.

Results

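The genes described here encode 10 integrin subunits, the 7 alpha chains Itga1, Itga3, Itga5, Itga6, Itga7, Itga8 and Itgav and the 3 beta chains Itgb1, Itgb3 and Itgb5. They were taken by gene symbol from the 27 integrin subunit genes among the 49315 gene identifiers of the count tables, with earlier results of these data known. The RNA came from primary myoblasts, the dividing precursors of muscle fibres, of wild-type C57BL/6J mice. The cells were given control (siCtrl), Lmod1 (siLmod1) or Sirt1 (siSirt1) small interfering RNA in a lipid reagent and were differentiated for 1 day. Leiomodin 1, the product of Lmod1, starts actin filaments, and the product of Sirt1 is a deacetylase that uses NAD. Each group held 5 libraries, numbered 1, 2, 3, 4 and 7 in every group, and each number is taken here as 1 of the 5 primary lines named in the study design. Every line thus received all 3 RNAs, with 1 library per RNA, and the sources used here give neither age nor sex of the mice.

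Integrins are receptors for the extracellular matrix, and each is a pair of an alpha and a beta chain. The alpha chain sets most of the ligand choice, while the tail of the beta chain binds talin and kindlin and so joins the matrix to actin. Itgb1 pairs with most alpha chains. Itga3, Itga6 and Itga7 give laminin receptors with it, Itga1 a collagen receptor, and Itga5 and Itga8 receptors for the RGD peptide of fibronectin and nephronectin. Itgav also binds RGD ligands, among them vitronectin and latent TGF-beta, and pairs with Itgb1, Itgb3 and Itgb5. In skeletal muscle the pair of Itga7 and Itgb1 is the main laminin-binding integrin, at the junctions with tendon and along the fibre, and loss of Itga7 causes muscular dystrophy.

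Upstream sequences are shown for 3 members. Itgav, Itgb1 and Itga7 were called lower in both knockdowns in the fit with the line block described below, but no RefSeq window was matched for Itga7. Itga1 had the lowest fitted fold change of the 10 in siLmod1. The 3 shown, Itgav, Itgb1 and Itga1, were thus chosen after their values were seen. Each sequence is the 250 bases before the RefSeq start on GRCm38.p6, read 5′ to 3′ along the gene. Capitals mark matches on either strand to CATTCC, the core bound by TEAD factors, to GGGCGG, the GC box, and to CAGCTG, an E-box of the kind bound by myogenic factors.
Itgav (chr2:83724147-83724396, plus strand): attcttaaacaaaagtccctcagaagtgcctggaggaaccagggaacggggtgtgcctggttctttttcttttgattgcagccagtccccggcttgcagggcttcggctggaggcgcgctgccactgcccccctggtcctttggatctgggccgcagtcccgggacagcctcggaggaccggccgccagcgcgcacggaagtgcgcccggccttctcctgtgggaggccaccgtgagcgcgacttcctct
Itgb1 (chr8:128685404-128685653, plus strand): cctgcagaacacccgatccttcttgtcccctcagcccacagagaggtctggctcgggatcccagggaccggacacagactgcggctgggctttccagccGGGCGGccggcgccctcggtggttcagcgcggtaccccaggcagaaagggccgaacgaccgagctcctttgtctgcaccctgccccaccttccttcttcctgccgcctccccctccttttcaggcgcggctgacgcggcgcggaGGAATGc
Itga1 (chr13:115101965-115102214, minus strand): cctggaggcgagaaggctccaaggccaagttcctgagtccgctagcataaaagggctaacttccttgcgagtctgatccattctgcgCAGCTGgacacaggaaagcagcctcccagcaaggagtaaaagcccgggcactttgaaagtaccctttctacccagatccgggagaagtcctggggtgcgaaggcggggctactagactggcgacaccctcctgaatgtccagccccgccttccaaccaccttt
RefSeq windows were matched for 7 of the 10 members (8 windows, 2 of them for Itga3), and none for Itga6, Itga7 and Itgb3. CATTCC was in 1 of the 8, that of Itgb1, against 12.6% of all 32851 windows of the same length. GGGCGG was in 5 of the 8 against 32.7%, and CAGCTG in 2, those of Itga1 and Itgb5, against 13.0%. No window of the 8 held a CArG box, the site of serum response factor (1.47% of all windows), TATAAA (12.4%) or TGANTCA, the AP-1 site (6.75%). The searched motifs do not overlap in these 3 sequences.

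Counted reads per library ranged from 26097889 to 33601761 for siCtrl, from 27135398 to 31829009 for siLmod1, and from 21004908 to 27815744 for siSirt1. Lmod1 stood at 23.8 ± 12.4 TPM (a level scaled by gene length and library total; mean ± SD, n = 5) in siCtrl and 2.79 ± 1.24 in siLmod1, and Sirt1 at 15.1 ± 4.06 in siCtrl and 4.01 ± 2.21 in siSirt1. Each target was lower in all 5 lines (with the line number as a block, edgeR adjusted p = 2.8e-06 for Lmod1 and 0.0027 for Sirt1, and without it 0.069 and 0.074). In the block fit Lmod1 was also lower in siSirt1 (14 ± 9.3 TPM, edgeR adjusted p = 0.027) and Sirt1 higher in siLmod1 (22.6 ± 5.69 TPM, edgeR adjusted p = 0.00014). Libraries of line 4 stood apart from the other 12 on the first principal component of log2 CPM, the counts scaled by library total, which held 39.6% of the variance. The siSirt1 library of line 1 was the least like its own line. With the group means removed, it correlated at 0.279 and 0.304 with the other libraries of line 1 and at 0.269 with siCtrl of line 3, over 15716 genes. Myoblast markers were abundant in every library, with Myod1, Myog, Des, Cdh15, Ncam1, Mymk, Pax7 and Myf5 summing to 6194 to 13980 TPM. Markers of other cells were mixed. Ptprc (blood) and Emcn (endothelium) had at most 2 reads in any library, Lum (fibroblasts) at most 1 and Sox10 (Schwann cells) at most 7. Other markers of the same cells were detected, among them Col3a1 (fibroblasts, 2509 to 18909 reads) and Erbb3 (Schwann cells, 1406 to 18687). Tek (5 to 2918 reads) and Vwf (17 to 400), both of endothelium, and Cd14 of blood (6 to 198) were detected as well. Of the smooth muscle and pericyte markers, Myh11 had at most 38 reads, Cnn1 at most 23 and Kcnj8 at most 4, while Acta2 was abundant and Smtn (1703 to 8912 reads), Notch3 (1097 to 4967), Mcam (353 to 2448) and Tagln (131 to 1956) were well detected.

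The laminin receptor chain Itga7 and its partner Itgb1 were the most abundant members. In siCtrl, Itga7 stood at 1064, 588, 506, 2843 and 702 TPM in lines 1, 2, 3, 4 and 7. Itgb1 stood at 699.9, 525, 613, 1286 and 705 TPM in the same order. The level of Itga7 was above that of Itgb1 in 3 of 5 lines, and the ranges overlapped. Below them in siCtrl came Itga5 (116.5 ± 36 TPM), Itga6 (102.5 ± 57.0), Itgb5 (73.6 ± 9.98), Itgav (37.1 ± 17.3) and Itga3 (24.6 ± 11.3), as mean ± SD over 5 lines. Itgb3 (2.32 ± 1.72 TPM), Itga1 (1.26 ± 0.795) and Itga8 (0.383 ± 0.267) formed the low end. Between neighbours in this order, the 5 siCtrl values did not overlap only from Itgb1 to Itga5 and from Itga3 to Itgb3. In siLmod1 the order had Itga3 above Itgav, in 4 of 5 lines, and the gaps were from Itgb1 to Itga5 and from Itgav to Itgb3. In siSirt1 the order was that of siCtrl, with gaps from Itgb1 to Itga5 and from Itgb5 to Itgav.

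The place of Itga7 above Itgb1 rests on the gene length behind the deposited TPM. Count over TPM gave 4013 bases for Itga7, whereas all its exons together span 8092 bases in the GENCODE M21 annotation. For Itga1 the lengths were 5984 and 18599 bases, for Itga5 4442 and 4933, for Itgb5 3362 and 3553, and for the other 6 members they were equal within rounding. With the annotation's length, the mean level of Itga7 in siCtrl would be 566 on the TPM scale against 765.7 for Itgb1, and higher than Itgb1 in 1 of 5 lines. Fold changes of a gene between groups do not depend on its length.

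**Figure D1:**
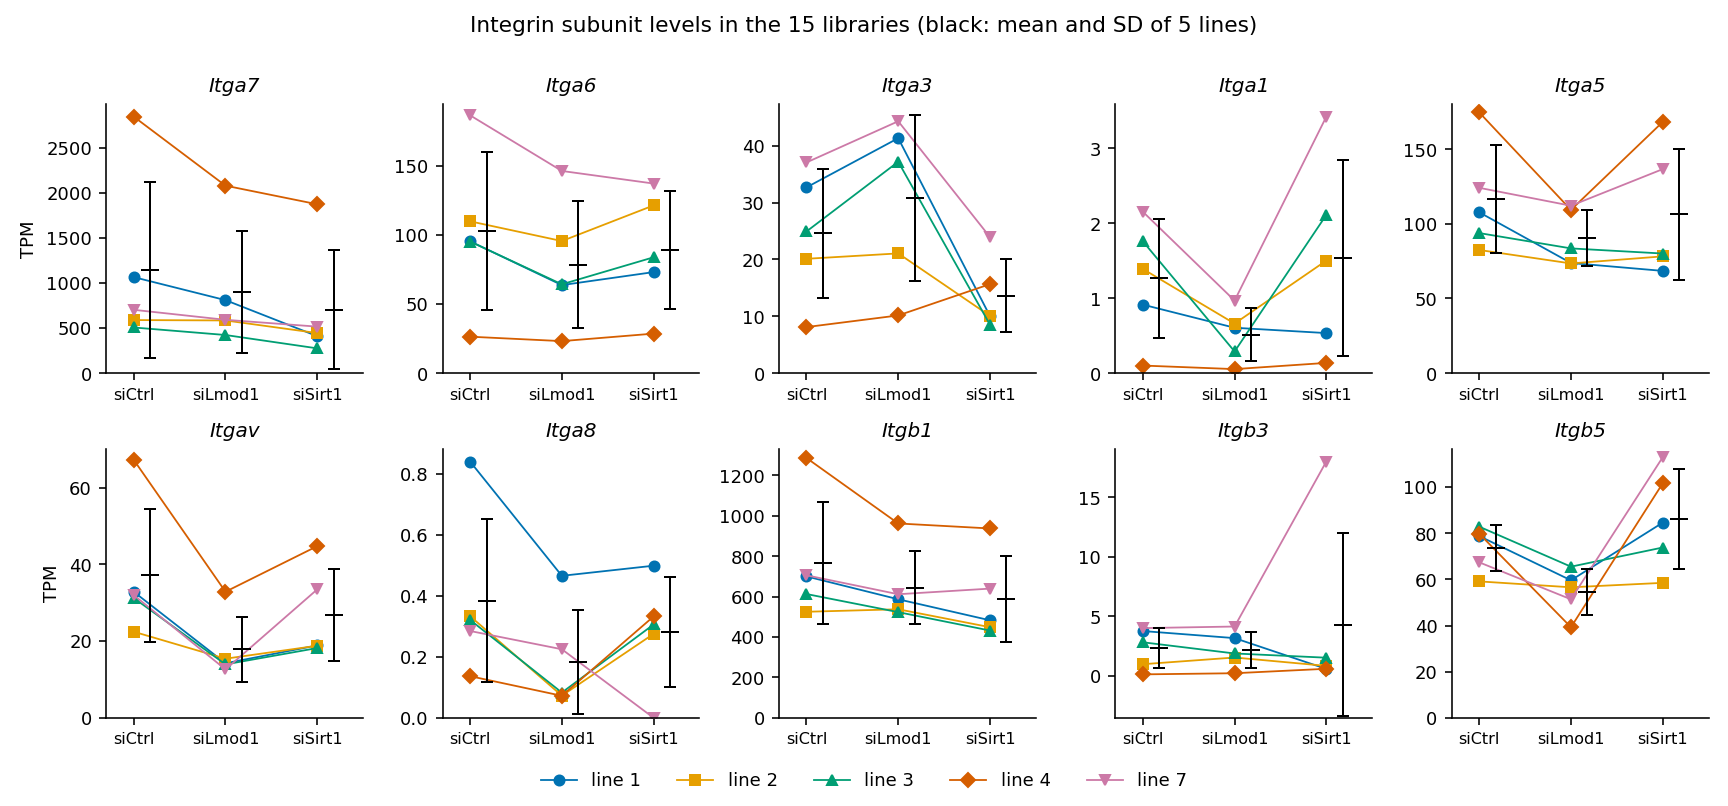
TPM of the 10 integrin subunits (vertical axes, linear, 1 scale per gene) in siCtrl, siLmod1 and siSirt1, with coloured points for the 5 lines joined across groups and black marks for the mean and SD. Line 4 is highest for Itga7 (1872 to 2843 TPM) and Itgb1 (937 to 1286) and lowest for Itga6 (23.1 to 28.5) in each group, and the groups overlap for every gene.

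Itga7 made up most of the alpha chain RNA. Its share of the summed TPM of the 7 alpha chains was 74.8 ± 10.8% (SD, n = 5) with siCtrl, 76.0 ± 10.9% with siLmod1 and 68.7 ± 11.7% with siSirt1. In line 4 it held 91.1%, 92.2% and 87.9% in the same order, and in line 7 it held 64.8%, 65.1% and 60.6%. With the annotation's lengths the mean shares would be 61.56%, 63.05% and 54.33%. The 3 laminin-binding chains together held 87.4 ± 3.53%, 88.8 ± 3.78% and 83.6 ± 4.69%. Itgav held 2.89 ± 0.764% in siCtrl, 1.69 ± 0.384% in siLmod1 and 3.19 ± 0.776% in siSirt1, and its siLmod1 share was below the siCtrl share in all 5 lines. Among the 3 beta chains, Itgb1 held 90.4 ± 2.38%, 91.4 ± 2.83% and 86.3 ± 2.87% of TPM. That sum leaves out Itgb6 (means of 40.3, 39.8 and 32.4 TPM in siCtrl, siLmod1 and siSirt1) and Itgb4 (16.5, 7.13 and 16.2). These shares are descriptions and were not tested.

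**Figure D2:**
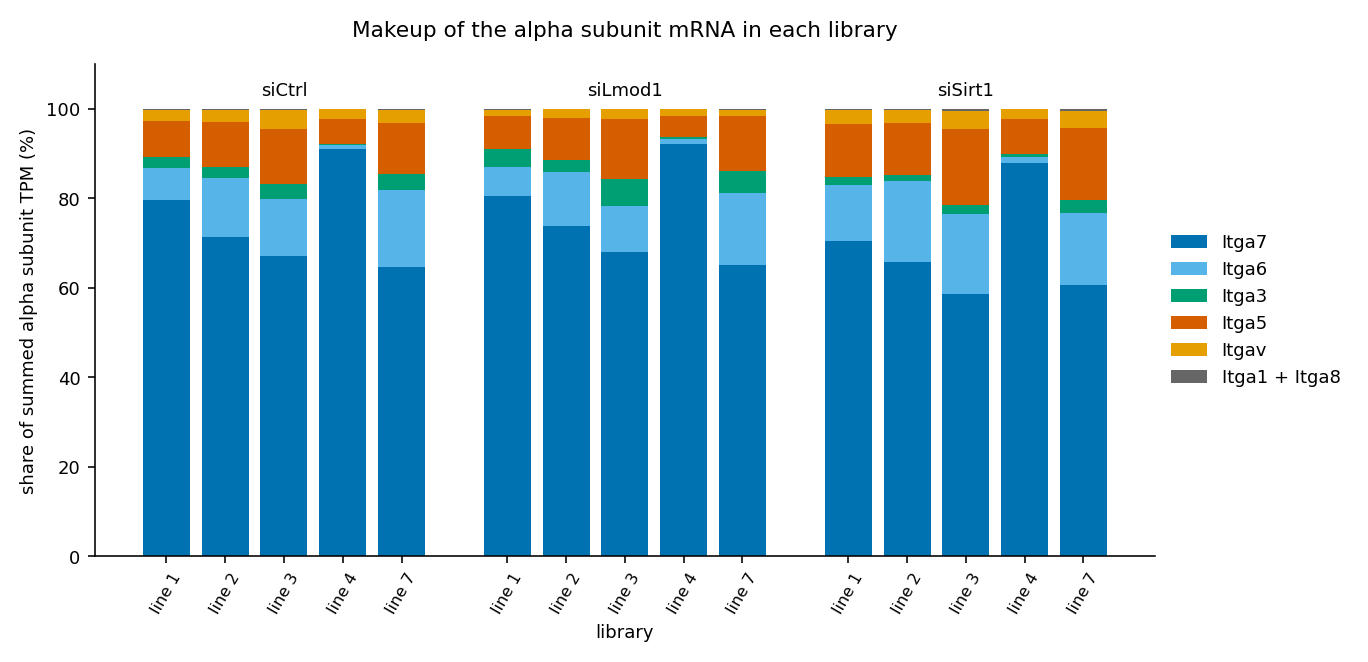
Share of the summed TPM of the 7 alpha chains (percent, stacked bars from 0 to 100) in each of the 15 libraries, grouped by RNA. Itga7 fills 58.7% (siSirt1, line 3) to 92.2% (siLmod1, line 4) of a bar, and Itga6 is thinnest in line 4, at 0.844% to 1.34%.

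Differences between the 5 lines were tested across all genes. In 1 edgeR fit over all 15 libraries with terms for RNA and line, 7 of the 10 members differed between lines at an adjusted p under 0.05 (quasi-likelihood F test, Benjamini-Hochberg over 15716 genes), a share near the 62.3% of all genes that did so. Itga6 (adjusted p = 3.54e-07) and Itga7 (adjusted p = 4.27e-07, same edgeR test) had the smallest p, followed by Itgb1 (7.02e-06). The 3 members that did not pass were Itga3 (adjusted p = 0.0723 in edgeR), Itga8 (0.154) and Itgb5 (0.756), the last with line means no more than 1.33 times apart. Line 4 was above the other 12 libraries for Itga7 and Itgb1 (432 to 705 TPM for Itgb1 in the other lines). It was below all 12 for Itga6 (63.6 to 186 TPM in the other lines) and for Itga1, which had 3 to 7 reads in its 3 libraries. Without line 4, Itga1 and Itgav no longer passed and Itga3 did, which made 6 of 10, beside 6877 of 15726 genes. Without line 1 or line 3, Itga3 was added to the 7, and without line 7, Itga8 was, which made 8 of 10 each time. The genes called were then 9618 of 15781 without line 1, 8515 of 15640 without line 3 and 8504 of 15868 without line 7. Endothelial markers also set line 4 apart, with a summed level of 31.3 to 63.3 TPM against 2.21 to 4.97 elsewhere, most of it Tek, and myoblast markers summed to 6194 to 7760 TPM in line 4 against 10010 to 13980. Blood markers summed to 13.97 to 22.2 TPM in line 4 against 5.126 to 10.5 elsewhere, and Schwann cell markers, mostly Erbb3, to 32.74 to 43.77 against 134.2 to 338. Pecam1, Cdh5 and Kdr, which define endothelium, had at most 23, 56 and 8 reads in any library, and the part of these markers in the line difference was not tested.

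The first comparison asked which early changes follow loss of Lmod1. With the line block, 8 of the 10 members fell in siLmod1 and 1, Itga3, rose (edgeR quasi-likelihood F test, adjusted p under 0.05 over 15022 genes). Of all genes tested, 16.5% fell and 12.9% rose in that fit. The median log2 fold change of the members was -0.40, against -0.01 over all genes. In the fit by RNA alone, none of the 10 passed, as against 0.113% of all genes. There 2 members, Itgav and Itgb5, had an unadjusted p under 0.05, and DESeq2 called 1 of the 10, Itgb5. All members had enough reads to be tested in each comparison, and for each of them the siLmod1 and siCtrl values overlapped. The RNA came from whole cultures, in which fewer cells of a type and less RNA per cell cannot be told apart.

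Itgav, the RGD-binding chain shared by several pairs (chr2:83724397-83806916 on GRCm38), had the smallest p. It stood at 32.8, 22.4, 31.2, 67.2 and 32.0 TPM in lines 1, 2, 3, 4 and 7 of siCtrl. In siLmod1 it stood at 14.2, 15.4, 13.9, 32.9 and 12.6 TPM. Every line was lower in siLmod1, by 0.64 (line 2) to 1.35 (line 7) on the log2 CPM scale, and only the high level of line 4 made the groups overlap. The level fell by 53.5%, a log2 fold change of -1.10 ± 0.09 (SE of the fit; edgeR with the line block, adjusted p = 3.7e-05). By RNA alone the fold change was -1.11 ± 0.37 (edgeR adjusted p = 0.37). With the block it passed without each line in turn. A transcript on the opposite strand, Gm13684, shares 634 exon bases with Itgav, and the libraries keep no strand, but it had 2.13 reads per library on average against 2630 for Itgav.

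The other RGD-binding alpha chains had larger p-values. Itga5, the classical fibronectin receptor chain, went from 82.5 to 175 TPM in siCtrl (median 108) to 73.4 to 112 in siLmod1 (median 83.5), lower in all 5 lines. Its log2 fold change was -0.39 ± 0.09 (edgeR with the block, adjusted p = 0.0089), and 0.051 without line 1. Itga8, a receptor for nephronectin, was close to the limit of detection, with 10 to 52 reads per library in siCtrl and 5 to 35 in siLmod1. Its levels in lines 1, 2, 3, 4 and 7 were 0.8395, 0.333, 0.3207, 0.1365 and 0.2845 TPM in siCtrl and 0.4653, 0.0726, 0.0828, 0.0722 and 0.2247 in siLmod1. Each line was lower, and the log2 fold change was -1.18 ± 0.32 (edgeR with the block, adjusted p = 0.019). The call was lost without line 1 (adjusted p = 0.054 in edgeR), line 2 (0.065) or line 3 (0.06).

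Laminin-binding chains split. Itga7 fell by 19.8%, from the siCtrl values above to 809, 584, 422, 2078 and 591 TPM in lines 1, 2, 3, 4 and 7 of siLmod1. All 5 lines were lower, line 2 by 0.10 only on the log2 CPM scale. Its log2 fold change was -0.32 ± 0.07 (edgeR with the block, adjusted p = 0.0054). Itga6, whose chain also forms the receptor of hemidesmosomes with Itgb4, fell by 25.4% and was lower in every line. In the 5 lines it went from 95.3, 109.7, 95.1, 26.3 and 186 TPM to 63.6, 95.4, 64.2, 23.1 and 146 (log2 fold change -0.42 ± 0.06, edgeR with the block, adjusted p = 0.00074). Itga3, a laminin chain best known from epithelia, moved the other way. It stood at 32.7, 20.1, 24.9, 8.10 and 37.1 TPM in siCtrl and at 41.4, 21.1, 37.2, 10.2 and 44.3 in siLmod1, nearly level in line 2 and higher in the other 4 lines. The log2 fold change was 0.27 ± 0.08 (edgeR with the block, adjusted p = 0.023), and it did not pass without line 1 (adjusted p = 0.079 in edgeR), line 3 (0.076) or line 7 (0.054).

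Itga1, the collagen receptor chain, had the lowest fold change, going from 0.914, 1.39, 1.76, 0.101 and 2.16 TPM in siCtrl to 0.606, 0.661, 0.289, 0.0533 and 0.969 in siLmod1. These values rest on 6 to 123 reads per siCtrl library and 3 to 49 per siLmod1 library. Every line was lower, and the log2 fold change was -1.33 ± 0.27 (edgeR with the block, adjusted p = 0.0053). On the same strand, the annotated gene Gm49395 shares 685 exon bases with Itga1, 3.683% of its exon length, and Pelo lies within its span with no shared exon base. Pelo had 819.4 reads per library on average against 56.1 for Itga1, and Gm49395 had no count of its own. The part of these 2 genes in the Itga1 values was not tested.

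Among beta chains, Itgb5, which pairs with Itgav, fell by 28.6%. Its levels were 78.8, 59.1, 82.8, 79.8 and 67.4 TPM in siCtrl and 59.6, 56.6, 65.5, 39.3 and 51.4 in siLmod1, lower in all 5 lines and most of all in line 4 (log2 fold change -0.49 ± 0.11, edgeR with the block, adjusted p = 0.0095). Itgb1 fell by 16.5%, to 587, 537, 523, 962 and 612 TPM in siLmod1. Its CPM was lower in all 5 lines and its TPM in 4, since line 2 was nearly level (log2 fold change -0.26 ± 0.06, edgeR with the block, adjusted p = 0.013, and 0.058 without line 1). Itgb3, the other common partner of Itgav, stood at 0.102 to 4.00 TPM in siCtrl and 0.198 to 4.13 in siLmod1, lower in 2 lines and higher in 3 (log2 fold change -0.05 ± 0.19, edgeR with the block, adjusted p = 0.88). A fit of all 15 libraries with the block, which shares the spread with siSirt1, called 3 members, Itga1, Itga6 and Itgav, beside 1427 of 15716 genes. Without line 1, 5 members passed, beside 2833 of 15079 genes. Without line 4 the same 9 passed, beside 4264 of 15175 genes.

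**Figure D3:**
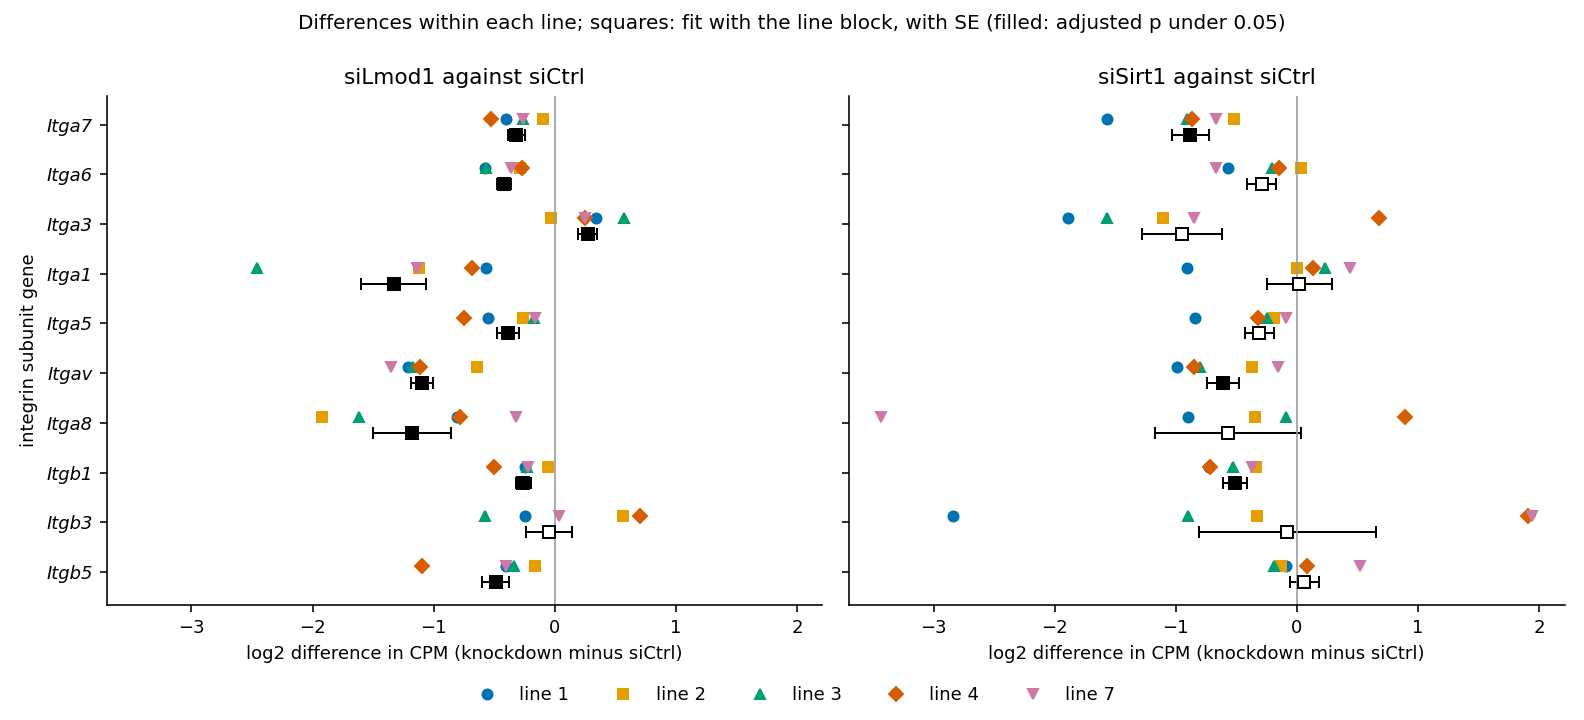
Difference in log2 CPM between knockdown and siCtrl of the same line (horizontal axis) for the 10 integrin subunits (vertical axis), with coloured points for lines and squares for the fit with the line block and its SE, filled where adjusted p is under 0.05. In siLmod1 all 5 lines lie below 0 for 8 members, and in siSirt1 for Itga5, Itga7, Itgav and Itgb1.

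The second comparison asked the same of loss of Sirt1, against the same siCtrl libraries. With the line block, the main muscle pair Itga7 and Itgb1 fell together with Itgav, and no member rose (3 of 10, edgeR quasi-likelihood F test, adjusted p under 0.05 over 14912 genes). Of all genes, 4.35% fell and 2.72% rose in that fit. The median log2 fold change of the members was -0.41, against 0.01 over all genes. By RNA alone none of the 10 passed, against 0.127% of all genes. One member, Itga3, had an unadjusted p under 0.05 there, and DESeq2 without the block called none. The siSirt1 and siCtrl values of every member overlapped.

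Itga7 (chr10:128933818-128958282) stood at 409.6, 444, 274, 1872 and 515 TPM in lines 1, 2, 3, 4 and 7 of siSirt1, below siCtrl in each line. It fell by 45.6% (log2 fold change -0.88 ± 0.15, edgeR with the block, adjusted p = 0.018). The fall was 1.57 on the log2 CPM scale in line 1 and 0.52 to 0.91 in the others. Without line 1, whose siSirt1 library was least like its line, it was -0.72 (adjusted p = 0.031 in edgeR), and only without line 3 was the call lost (adjusted p = 0.055). By RNA alone its fold change was -0.88 ± 0.65 (edgeR adjusted p = 0.73).

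Itgb1 (chr8:128685654-128733200) stood at 483, 449, 432, 937 and 639 TPM in siSirt1, also below siCtrl in each line. It fell by 29.8% (log2 fold change -0.51 ± 0.10, edgeR with the block, adjusted p = 0.025). Itgav stood at 18.9, 18.8, 18.2, 44.7 and 33.5 TPM. Its CPM was below siCtrl in all 5 lines but its TPM in 4, as line 7 was nearly level (fell by 34.5%, log2 fold change -0.61 ± 0.13, edgeR with the block, adjusted p = 0.036). Neither call held when a line was removed, other than line 7. Without lines 1, 2, 3 and 4 in turn the adjusted p of Itgb1 in edgeR was 0.082, 0.055, 0.073 and 0.067, and that of Itgav was 0.11, 0.067, 0.1 and 0.093.

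Itga3 showed a split between lines. Its siSirt1 levels were 10.04, 10.07, 8.528, 15.66 and 23.95 TPM in lines 1, 2, 3, 4 and 7. Lines 1, 2, 3 and 7 were lower than siCtrl, by 0.85 to 1.89 on the log2 CPM scale, whereas line 4 was higher by 0.68. The log2 fold change was -0.95 ± 0.33 (edgeR with the block, adjusted p = 0.13). Without line 4 it was -1.337 (adjusted p = 0.02 in edgeR), and DESeq2 with the block gave an adjusted p of 0.012 over all lines.

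The remaining 6 members did not pass with the block. Itga5 (log2 fold change -0.31 ± 0.12, edgeR adjusted p = 0.15) was lower in CPM in all 5 lines and in TPM in 4, and Itga6 (-0.29 ± 0.12, edgeR adjusted p = 0.17) in CPM in 4 and in TPM in 3. Itgb5 stood at 58.5 to 113 TPM in siSirt1, with a log2 fold change of 0.06 ± 0.12 (edgeR adjusted p = 0.77). The collagen chain Itga1 stood at 0.5345, 1.503, 2.113, 0.1363 and 3.425 TPM, with a log2 fold change of 0.02 ± 0.27 (edgeR adjusted p = 0.98). Itgb3 was the least even member, at 0.562, 0.816, 1.51, 0.573 and 18.02 TPM. Line 7 held 685 of its reads and line 1 held 28, and the log2 fold change was -0.08 ± 0.73 (edgeR with the block, adjusted p = 0.96). Itga8 had 31, 16, 18 and 21 reads in lines 1, 2, 3 and 4 and 0 in line 7, where a count of 0 allows up to 3 (log2 fold change -0.57 ± 0.60, edgeR adjusted p = 0.59).

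Set side by side, the knockdowns gave different values for several members, and the direct comparison of siLmod1 with siSirt1 tested this. With the block, 1 member passed, Itga7, which was higher in siLmod1 in all 5 lines (log2 fold change 0.58 ± 0.14, edgeR adjusted p = 0.027 over 14998 genes). In that fit 8.43% of all genes were higher and 7.43% lower in siLmod1. By RNA alone none of the 10 passed, against 1.53% of all genes, while 2 had an unadjusted p under 0.05 and DESeq2 called both, Itga3 and Itgb5. Itga3 was at 1.23 ± 0.36 (edgeR with the block, adjusted p = 0.053), higher in siLmod1 in lines 1, 2, 3 and 7 and lower in line 4. Itgav was lower in siLmod1 in all 5 lines (-0.47 ± 0.15, edgeR with the block, adjusted p = 0.064), as was Itgb5 (-0.54 ± 0.18, 0.075). Itga1 was at -1.32 ± 0.45 (edgeR adjusted p = 0.081) and Itgb1 at 0.27 ± 0.09 (0.079). DESeq2 with the block, and the edgeR fit of all 15 libraries with the block, called these 5 and Itga7. The call of Itga7 was lost without line 1 (edgeR adjusted p = 0.061) or line 3 (0.087). Itga1 passed without line 1 (-1.777, edgeR adjusted p = 0.04), and Itga3 passed without line 4 (1.617, 0.011).

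Ligands and partners of the integrins were counted in lists. In siLmod1, 14 of the 22 matrix ligands tested fell with the block and none rose (median log2 fold change -0.46), against 16.5% of all genes that fell. Fbn1, which encodes fibrillin 1, an RGD ligand of Itgav and Itga5, went from 108 ± 47.1 to 46.4 ± 21.3 CPM (SD, n = 5). The collagen IV chains Col4a1 (277 ± 211 to 128 ± 91.9 CPM) and Col4a2 (235 ± 169 to 133 ± 89.6 CPM), which form basement membranes, were lower in all 5 lines. Laminin genes that fell included Lama2, Lama5, Lamb1 and Lamc1, with log2 fold changes of -0.43 to -0.91. Npnt, the nephronectin bound by Itga8, had -0.48 ± 0.07 (edgeR with the block, adjusted p = 0.00071), and Fn1, fibronectin, had -0.36 ± 0.09 (0.016). Without line 1, 11 ligands fell, against 1659 of 15079 genes, and in the fit of all 15 libraries with the block 4 did, against 827 of 15716. By RNA alone no gene of these lists passed in either knockdown.

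In siLmod1 with the block, 16.5% of all genes fell and 12.9% rose, and the next 3 lists are read against these shares. Inside the cell, 18 of 33 adhesion adaptors and kinases fell in siLmod1 with the block and none rose (median -0.19). The smallest p belonged to Itgb1bp2, which encodes melusin, a muscle protein that binds the tail of Itgb1. It went from 276 ± 201 to 159 ± 113 CPM, lower in all 5 lines (log2 fold change -0.77 ± 0.07, edgeR with the block, adjusted p = 5.4e-05). Tns1, a tensin that ties integrins to actin, had -0.83 ± 0.07, and Pxn, the focal adhesion scaffold paxillin, had -0.59 ± 0.05. Vcl (vinculin), Tln2 (talin 2) and Fermt2 (kindlin 2) fell too, with -0.63, -0.47 and -0.33. In the fit of all 15 libraries with the block 8 of the 33 fell, and without line 4, 15 fell and 2 rose. Of all 15716 genes tested with all 15 libraries and the block, 827 fell and 600 rose. Of all 15175 genes tested without line 4, 2340 fell and 1924 rose. Of the 14 surface partners, 6 fell and 2 rose. Cav1, which encodes caveolin 1, had -1.56 ± 0.22, and the urokinase receptor Plaur had -1.09 ± 0.15. Lgals3, galectin 3, rose from 240.0 ± 280.0 to 339 ± 390.0 CPM, higher in all 5 lines (log2 fold change 0.51 ± 0.05, edgeR with the block, adjusted p = 0.00012). With all 15 libraries 1 partner fell and 1 rose. Of the 10 other integrin subunits tested out of 17, 2 fell, the tenascin receptor chain Itga9 (-1.37 ± 0.22) and Itgb4, the partner of Itga6 (-0.97 ± 0.20), and with all 15 libraries 1 subunit fell.

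In siSirt1 the same lists are read against the 4.35% of all genes that fell. Of 22 ligands 4 fell, among them Lamc3, Lamb2 and Ltbp1. Lamb2, a laminin beta chain, went from 209 ± 57.2 to 133 ± 43.4 CPM, lower in all 5 lines (log2 fold change -0.64 ± 0.10, edgeR with the block, adjusted p = 0.013). Of 33 adaptors and kinases 6 fell, among them Lims1 (-0.71 ± 0.11) and Parva (-0.63 ± 0.11), which encode PINCH1 and alpha-parvin, the partners of integrin-linked kinase. Cd151, the tetraspanin that binds laminin-binding integrins, went from 128 ± 16.9 to 51.8 ± 15.6 CPM, lower in all 5 lines (log2 fold change -1.32 ± 0.15, edgeR with the block, adjusted p = 0.0056). Cd81 fell and the syndecan Sdc4 rose. Itgb8, another partner of Itgav, went from 8.40 ± 3.18 to 3.00 ± 1.23 CPM (-1.47 ± 0.19, edgeR with the block, adjusted p = 0.0081) and was the only 1 of 11 other subunits called. Without line 1, 2 ligands and 2 adaptors fell and 1 adaptor rose, while of all 15066 genes 260 fell and 72 rose. In the fit of all 15 libraries with the block, 4 ligands fell, 8 adaptors fell and 1 rose, 3 surface partners fell and 2 rose, and 1 other subunit fell and 1 rose. Of all 15716 genes in that fit, 1346 fell and 1184 rose. Sdc4 no longer passed without line 4 or line 7, and 1 other subunit rose without line 7.

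**Figure D4:**
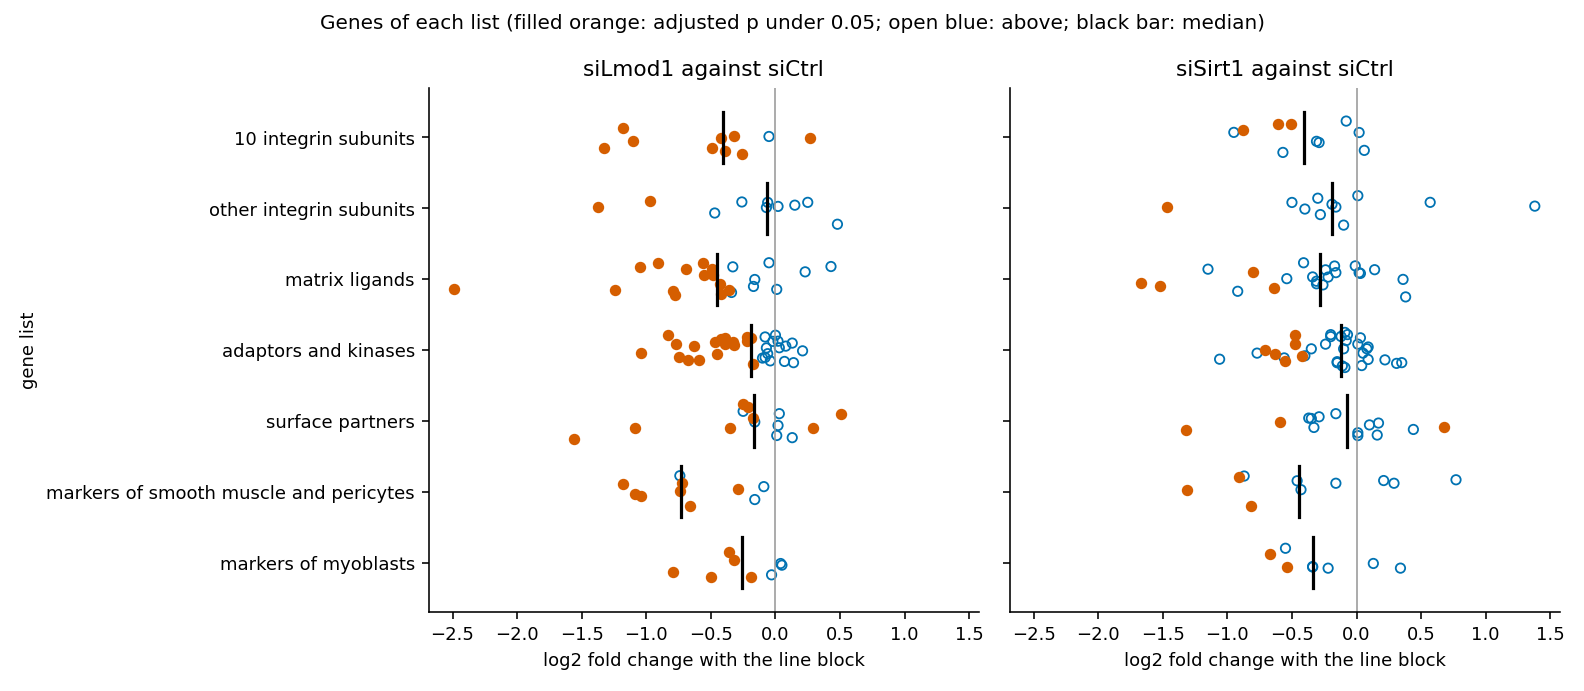
Log2 fold change with the line block (horizontal axis) of every tested gene in 7 lists (vertical axis; points are spread vertically for legibility), filled orange where adjusted p is under 0.05, with a black bar at the list's median. In siLmod1 the medians of the 10 integrin subunits, the matrix ligands and the smooth muscle and pericyte markers are -0.40, -0.46 and -0.73, and in siSirt1 they are -0.41, -0.28 and -0.45.

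Some markers of other cells also changed. They are read against the 16.5% of all genes that fell in siLmod1 with the block and the 4.35% in siSirt1. With the block, 7 of 10 tested smooth muscle and pericyte markers fell in siLmod1, among them Abcc9 (-1.18 ± 0.07), Notch3 (-1.04 ± 0.16) and Tagln (-0.66 ± 0.09). Without line 1, 5 of 10 fell, against 1659 of 15079 genes. In the fit of all 15 libraries with the block 4 of 10 fell, against 827 of 15716 genes. In siSirt1, 3 of 10 fell, namely Acta2, Abcc9 and Tagln, and none did without line 1 and 1 without line 4. The summed level of the 12 markers ran from 4729 to 10840 TPM for siCtrl, from 3779 to 9997 for siLmod1 and from 2553 to 8066 for siSirt1, nearly all of it Acta2, which myoblasts also express. Of the fibroblast markers, Col1a1, Col1a2 and Col3a1 fell in siLmod1, where the 7 markers summed to 35.5 to 102 TPM against 47.4 to 172 in siCtrl, and with all 15 libraries 1 of the 6 tested fell. In siSirt1 the fibroblast sum was 52.2 to 268 TPM and Dcn rose, though not without line 1. Reads were few for 2 of these genes. Col1a1 had 3 or fewer in 3 of the 15 libraries, and was lower in siLmod1 in 4 of 5 lines. Dcn had 0 to 66 reads, with 3 or fewer in 4 libraries. Myoblast markers fell too, 5 of 8 in siLmod1 (Myog, Pax7, Mymk, Cdh15 and Ncam1) and 2 of 8 in siSirt1 (Ncam1 and Mymk), the latter count being 1 without line 1, 4 or 7. With all 15 libraries 2 fell in siLmod1 and 4 in siSirt1, against 827 and 1346 of 15716 genes. Of the tested markers of endothelium (3 of 7), blood (4 of 8) and Schwann cells (4 of 6), Vwf rose and Laptm5 and Erbb3 fell in siLmod1, Erbb3 not without line 1 or 7, and none was called in siSirt1. With all 15 libraries neither Vwf nor Erbb3 passed in siLmod1, and in siSirt1 1 blood and 1 Schwann marker rose. The part of these markers in the integrin results was not tested.

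Across the 15 libraries the levels of some members followed each other, as a description in which 3 libraries share each line and line 4 lies far out. Itga7 and Itgb1 had a Pearson r of 0.963 in log2 CPM, and 0.876 over the 12 libraries outside line 4. Among 10004 genes with a mean of at least 5 CPM, those most like Itga7 were Metap2 (r = 0.982), Nsmce3 (0.976) and Snap47 (0.974), and without line 4 their r was 0.958, 0.924 and 0.911. Snap47 (0.966) and Itga7 itself led the genes most like Itgb1, before Hspa12a (0.958). For Itga8 the highest r were 0.808 (Spg7), 0.774 (Rrp9) and 0.762 (Polr1b), on 0 to 52 reads of Itga8 per library. Itga1 and Itga6, both low in line 4, had an r of 0.904, and 0.677 without that line. Itga6 and Itga7 had -0.65 over all libraries and 0.333 without line 4, so that the negative value rests on line 4.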

How the data were processed

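RNA was measured in 15 libraries, 5 per RNA, made with a TruSeq v2 poly(A) kit and no strand information, per the labels' protocols. The authors deposited tables of raw counts by Ensembl gene, 1 table per pair of groups, and TPM values, which scale counts by gene length and library total. The submitters' processing notes name DESeq2 and the build mm10, and the sources used here name no aligner or counter.

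Each pair of groups was fitted to the raw counts in edgeR 4.0.16 (R 4.3.3) with filterByExpr, TMM scaling, a quasi-likelihood F test and Benjamini-Hochberg adjustment over all genes, called under 0.05. The planned fit had the RNA alone, and listed alternatives were a block for the line number and DESeq2 1.42.0. CPM values were scaled by TMM, and log2 CPM had a prior count of 2. The SE is the log2 fold change divided by the square root of F. With group means removed, libraries of the same number correlated at 0.279 to 0.889 (15 pairs) and of different numbers at -0.517 to 0.269 (60 pairs, 15716 genes). Every pair of the same number was over 0.1, but so were some pairs of different numbers. Each library correlated more with both libraries of its own number than with any other library outside its group. For siSirt1 of line 1 the margin was narrow (0.279 against 0.269). As the design text also names 5 lines, the numbers are taken to pair the libraries, so blocked values are printed beside the others. With the block, the p-values measure the spread of the differences within lines over 5 lines, with 1 library each per RNA. By RNA alone, they measure the spread between the 5 libraries of a group and ignore that the lines recur. In the test between lines, they rest on the spread left among the 3 differently treated libraries of each line. The floor of 3 counts covers counting error only. The fit was also run on simulated counts for siCtrl and siLmod1, with line effects and changes of 1 fixed size. That run did not cover smaller changes or the siSirt1 libraries, and it is no test of the results here.

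The members, lists and tests were chosen with earlier results of these data known. Named genes are the 10 members, Lmod1, Sirt1, up to 3 genes per list and comparison with the smallest blocked p, and 3 genes most like each of Itga7, Itga8 and Itgb1. Other genes named from a list were chosen after their values were seen, and 1 gene that the rule names is not reported here. Sequences are from the RefSeq promoter table on GRCm38.p6. Tables were handled in Python 3.11.15 with pandas 2.3.3.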

Additional observations from a re-analysis of the deposited data

Results flagged for a closer look

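Of 30 groups of 5 TPM values (10 members in 3 groups), 9 held a library whose gap to the nearest other was more of the group's range than Dixon's 95% limit allows, and 7 of the 9 were of line 4. Chance flags about 1 in 20 groups, and the 3 libraries of a line are not independent. Itga7 was far above the other lines in line 4 of siCtrl (2843 TPM), siLmod1 (2078) and siSirt1 (1872). Itgb1 was so in line 4 of siCtrl (1286 TPM) and siLmod1 (961.9), and Itgav in line 4 of siCtrl (67.22 TPM) and siLmod1 (32.86). Itga8 stood apart in line 1 of siCtrl (0.8395 TPM), and Itgb3 in line 7 of siSirt1 (18.02 TPM).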

How the results depend on the processing

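The replicate block, that is the line number, decided most calls, and the cause was not tested beyond the pairing given above. For siLmod1 against siCtrl, 17 genes were called by RNA alone, 6 with no filter on low counts, 360 by DESeq2, 38 with all 15 libraries, and 3 to 10 when a library was left out. With the replicate block 4430 were called, 4052 by DESeq2 with the block, 1427 with all 15 libraries, and 2833 to 4264 without a line. Members called were 0 by RNA alone, 1 by DESeq2, and with the block 9, 9 by DESeq2, 3 with all 15 libraries and 5 to 9 without a line. For siSirt1 against siCtrl, 19 genes became 7 with no filter, 376 by DESeq2, 150 with all 15 libraries and 3 to 13 without a library. The block gave 1054, or 2005 by DESeq2, 2530 with all 15, 1809 with no filter and 332 to 580 without a line. Members called with the block were 3, 4 by DESeq2, 3 with all 15 and 0 to 3 without a line. For siLmod1 against siSirt1, 229 genes became 90 with no filter, 1154 by DESeq2, 554 with all 15 libraries and 54 to 247 without a library. The block gave 2379, or 3265 by DESeq2, 4210 with all 15 and 946 to 1771 without a line. Members called were 2 by DESeq2 alone, and with the block 1, 6 by DESeq2, 6 with all 15, 5 with no filter and 0 to 2 without a line. Scaling by RLE size factors called 16, 19 and 228 genes by RNA alone in the 3 comparisons, and with the block the same 9, 3 and 1 members.

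Reversed signs touched only values that had not passed in the fit concerned. By RNA alone, leaving out a library gave log2 fold changes in siLmod1 against siCtrl of -1.03 to 0.33 (Itga7), -0.52 to 0.011 (Itgb1) and -0.50 to 0.20 (Itgb3). In siSirt1 against siCtrl it gave -0.33 to 0.46 (Itga1), -0.57 to 0.003 (Itga6), -1.52 to 1.04 (Itgb3) and -0.03 to 0.17 (Itgb5). In siLmod1 against siSirt1 it gave -0.25 to 0.11 (Itga5), -0.44 to 0.16 (Itga6), -0.13 to 1.25 (Itga7) and -1.217 to 1.409 (Itgb3). With the block, leaving out a line gave -0.18 to 0.12 (Itgb3) in siLmod1, -0.13 to 0.24 (Itga1), -0.70 to 0.61 (Itgb3) and -0.059 to 0.125 (Itgb5) in siSirt1, and -0.14 to 0.037 (Itga5) and -0.50 to 0.73 (Itgb3) between the knockdowns. Itgb3 in siSirt1 was 0.74 by RNA alone, -0.081 with the block, 0.027 by DESeq2 with the block and 0.12 with all 15 libraries and the block. Between the knockdowns it was -0.83 by RNA alone, 0.13 with the block, 0.10 by DESeq2 with it and -0.16 with all 15 libraries. Itga1 in siSirt1 was -0.014 with no filter and the block.

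The fits with RLE scaling or no filter and the block, the list counts without a line, and the annotation's gene lengths were added after the data were seen. Depth limits Itga8 and Itga1, with at most 52 and 132 reads per library.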

Other observations

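Between the knockdowns, genes of the integrin neighbourhood differed in both directions with the line block (edgeR, adjusted p under 0.05, 8.43% of all genes higher and 7.43% lower in siLmod1). Of 33 adaptors and kinases 5 were higher and 6 lower in siLmod1, and of 22 matrix ligands 3 were higher and 3 lower. Cd151 stood at 130 ± 12 CPM in siLmod1 and 51.8 ± 15.6 in siSirt1 (SD, n = 5), higher in siLmod1 in all 5 lines (log2 fold change 1.35 ± 0.16, edgeR adjusted p = 0.0031). Lims1 stood at 221 ± 51.4 and 122 ± 35.8 CPM (0.86 ± 0.10, edgeR adjusted p = 0.0029). Fyn, a Src-family kinase, stood at 162 ± 24.0 and 246 ± 45.0 CPM (-0.62 ± 0.08, edgeR adjusted p = 0.0044). Itgb8 stood at 9.49 ± 4.17 and 3.00 ± 1.23 CPM (1.63 ± 0.17, edgeR adjusted p = 0.0018), and Itga9 at 2.4 ± 2.5 and 5.21 ± 4.36 CPM (-1.16 ± 0.31, edgeR adjusted p = 0.04). Without line 1, 2 adaptors were higher and 2 lower, and the ligands gave 2 and 2, while of all 15013 genes 569 were higher and 473 lower. Itga9 no longer passed without line 1 or line 4. These genes were chosen after their values were seen.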
